A study of Saccharomyces pastorianus with 12 samples.

Results

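Ribosome biogenesis factors are the proteins that build ribosomes without staying in them, and 66 of their genes were followed through a lager fermentation. They were chosen by name, as every gene whose symbol is NOP, UTP, RRP, DBP, RPF, NOG, NUG or NSA followed by a number. The pattern itself uses no measured value, though it was proposed with earlier results of these data known. They make up 66 of the 5490 named genes and of the 6051 features tested. Each had 1 probe and a value on all 12 arrays. By their known roles, 3 are core proteins of box C/D small nucleolar ribonucleoproteins (snoRNPs), 26 act on the small subunit, 24 on the large subunit, 2 on both, and 7 are subunits of the RNA exosome. The last 4 (DBP1, DBP2, DBP5 and NOP13) share the naming and were set apart as having other, mainly messenger RNA or less settled roles. DBP2 also acts in ribosomal RNA processing.

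Lager brewing yeast is the hybrid Saccharomyces pastorianus, for which the labels give the synonym S. carlsbergensis, and it was sampled here in a brewery fermentation at production scale. Total RNA from 12 times, namely 0, 1, 24, 48, 72, 96, 120, 144, 168, 192, 240 and 264 h, was hybridised to 1 array each, so no single time had a replicate. For tests, neighbouring times were pooled into 4 windows. The first held the 2 arrays at 0 and 1 h, the second the 3 arrays from 24 to 72 h, the third the 3 from 96 to 144 h and the last the 4 from 168 to 264 h. All arrays may come from 1 fermentation, no strain, genotype, medium or temperature was labelled, and since genes carry S. cerevisiae names, the signal of copies inherited from another species could not be separated.

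In budding yeast, RNA polymerase I makes a long ribosomal RNA precursor in the nucleolus. The small subunit processome, with its many UTP proteins, folds and cuts the part that becomes the small subunit, while a series of helicases, GTPases and scaffold proteins matures the large subunit, and box C/D snoRNPs guide methylation of the RNA. Transcripts of these factors are known in budding yeast as a co-regulated group that is high in fast growth and low in starved or stationary cells, under the control of TOR and protein kinase A signalling.

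The array medians ran from 762 to 10141.5 intensity units. A level below is the log2 distance of a gene from the median gene of its own array, so it compares a gene with itself at different times and not with another gene. The spread of the arrays also differed, with a standard deviation over all features of 0.665 log2 units at 240 h and 1.56 at 1 h. Values after quantile normalization, which gives every array the same distribution, are therefore set beside the differences between the 1 h and 0 h arrays. The 240 h array was the least like the others, with a median Spearman correlation across all features of 0.252 and across the 66 genes of 0.237. Of the 792 values of the 66 genes, 31 in 15 genes lay under the 5th percentile of their array, where a low level has little meaning.

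As a group the biogenesis factor genes stood highest at 1 and 24 h. Their median level was -0.20 at 0 h, 0.68 at 1 h and 0.53 at 24 h. It was 0.19 at 48 h and 0.03 at 72 h, lay between -0.02 and 0.08 from 96 to 144 h, and was -0.20, -0.23, -0.06 and 0.08 at 168, 192, 240 and 264 h. After quantile normalization the same course ran from -0.27 at 0 h to 0.46 at 1 h, 0.38 at 24 h and 0.19 at 48 h, and was lowest at 192 h with -0.28. Counted against the median gene of each array, 27 of the 66 genes lay above it at 0 h, 50 at 1 h, 46 at 24 h, 41 at 48 h, and between 26 and 36 at each later time. The plot of levels by time shows that both quartiles stood high at 1 h, at 0.24 and 1.10. At 24 h the upper quartile was 1.13, but the lower one was -0.24, close to its -0.28 at 72 h. The spread among the genes was wide at every time. Because each array holds RNA of the whole culture, more cells with a transcript and more transcript per cell cannot be told apart in these or the following values.

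**Figure D1:**
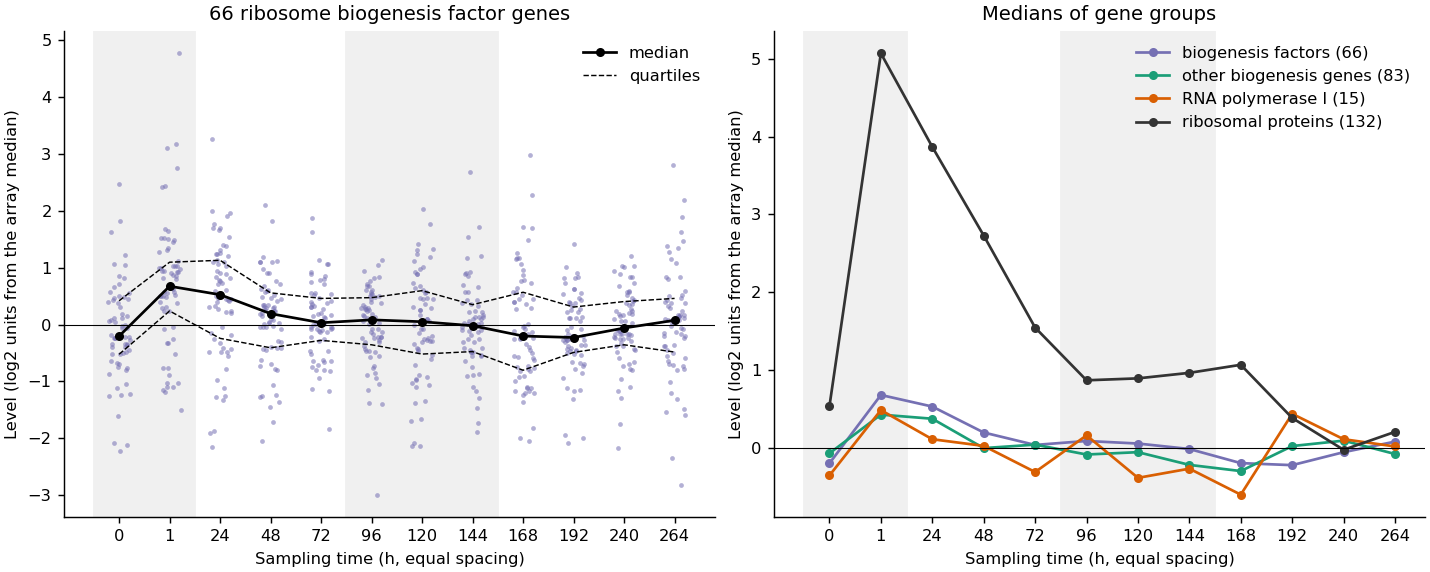
Left, level of each of the 66 genes (points) at each sampling time, in log2 units relative to that array's median gene, with the median (solid line) and quartiles (dashed lines). Right, median level of the 66 genes beside 83 other biogenesis genes, 15 genes of RNA polymerase I and its initiation factors, and 132 genes listed as ribosomal proteins (RPP1, among them, encodes none). Shading marks the windows of 0 to 1 h and 96 to 144 h, and the time axis is evenly spaced and not to scale. The median of the 66 genes stood at 0.68 at 1 h and 0.53 at 24 h, and between -0.23 and 0.19 at every other time.

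With median centring, the time of a gene's highest level followed the same course. It was 1 h for 25 of the 66 genes, or 37.9%, against 19.8% of all features, and 24 h for 13 genes, or 19.7% against 10.5%. Quantile normalization, which narrows the wide 1 h array, changed these counts. Highest at 1 h were then 13 genes (19.7%, against 12.5% of all features) and at 24 h 6 genes (9.09%, against 6.76%). More genes were highest late, with 11 genes (16.7%, against 17.9%) at 240 h and 15 genes (22.7%, against 15.8%) at 264 h. With median centring, a lowest level at 1 h was found in 1 gene, NOP14, against 12.7% of all features. The heat map of all 66 genes shows the median-centred levels. On that scale, 31 of the 53 snoRNP, small subunit and large subunit genes were highest at 1 or 24 h. So were 3 of the 7 exosome genes.

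**Figure D2:**
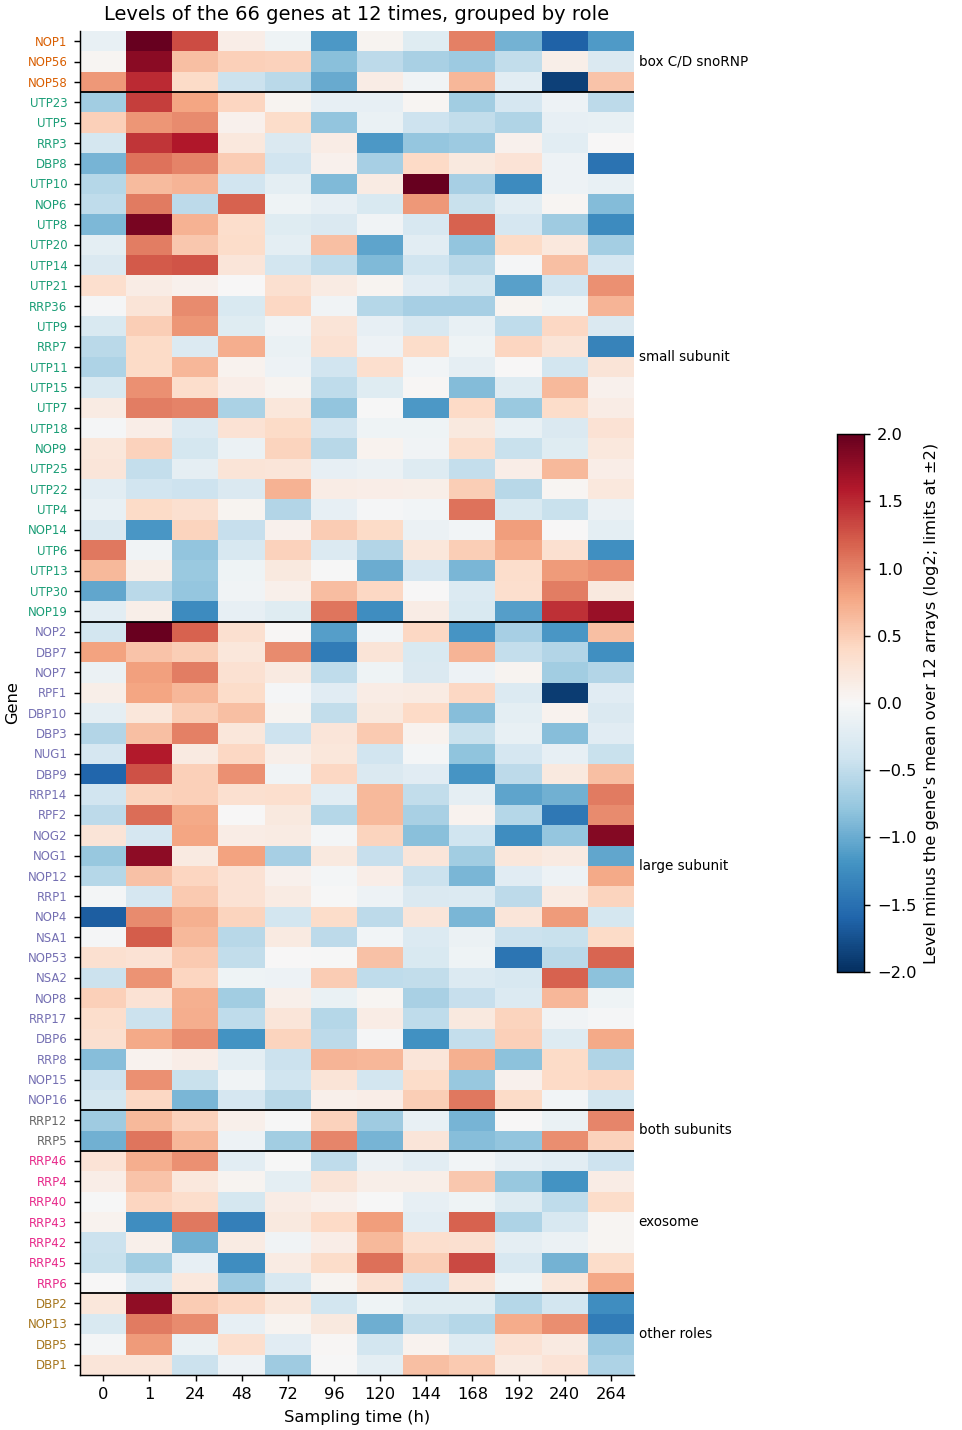
Level of each of the 66 genes at the 12 sampling times, as the difference from the gene's own mean over 12 arrays in log2 units (colour, limits at 2 units each way), grouped by role and, within a role, ordered by the difference of 168 to 264 h from 24 to 72 h. With median centring, as shown, 25 genes had their highest level at 1 h and 13 at 24 h. After quantile normalization these counts were 13 and 6.

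The first hour after the start was compared on 1 array at each time, so it has values and no test. At 1 h, 51 of the 66 genes stood higher than at 0 h and 15 lower, and the median of their differences was 0.81 log2 units, which is 1.76-fold. Over all features 51.7% were higher and the median difference was 0.05, or -0.02 after quantile normalization. After quantile normalization 48 of the 66 were higher, with a median of 0.50. More than 2-fold higher were 27 of the 66 genes, against 22.7% of all features, and more than 2-fold lower were 2 (RRP43 and UTP6), against 18.3%. After quantile normalization these counts were 20 and 2, against 17.5% and 17.7% of all features.

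The differences of the snoRNP genes between the 0 and 1 h arrays depended on the scaling, in size and, for NOP58, in direction. NOP1, which encodes the fibrillarin methyltransferase of box C/D snoRNPs, had the largest difference of all members with median centring (but not after quantile normalization), with levels of 1.82 and 4.77 at 0 and 1 h, which is 2.95 log2 units or 7.75-fold, and 0.57 log2 units after quantile normalization. NOP56, a core scaffold protein of the same particle, stood at 0.66 and 2.42 at 0 and 1 h, a difference of 1.76 or 0.66 after quantile normalization. Its partner NOP58 stood at 2.48 and 3.11 at 0 and 1 h, a difference of 0.63 that turned to -0.99 after quantile normalization. All 3 stood above the array median at both times, where the broad spread of the 1 h array weighs most. The median over the 3 genes was 1.76 before and 0.57 after quantile normalization.

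Of the 26 small subunit genes, 20 stood higher on the 1 h array, by a median of 0.66, and of 0.61 after quantile normalization. UTP8, a member of the UtpA subcomplex that binds the start of the precursor, stood at -0.36 and 2.45 at 0 and 1 h, a difference of 2.80 or 6.98-fold (1.999 after quantile normalization). UTP23, a processome protein of the PIN domain family, stood at -0.77 and 1.31 at 0 and 1 h. RRP3, a DEAD-box helicase, stood at -0.86 and 0.92 at 0 and 1 h. The 3 genes kept differences of 1.999, 1.80 and 1.64 after quantile normalization, so all were over 2-fold higher on either scale. Going the other way, UTP6, of the UtpB subcomplex, stood at -0.06 and -1.18 at 0 and 1 h, a difference of -1.12 (-0.85 after quantile normalization). NOP14, needed for the nuclear steps of small subunit assembly, stood at -0.23 and -1.10 at 0 and 1 h, and UTP25, another processome protein, at -0.06 and -0.77 at 0 and 1 h. These 3 were among the 6 lowest differences of the 66 genes with median centring, and NOP14 and UTP25 gave -0.56 and -0.52 after quantile normalization. The fixed members UTP4 (UtpA) and UTP22 (UtpC) had differences of 0.53 and -0.17, which were 0.08 and 0.03 after quantile normalization.

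Of the 24 large subunit genes, 18 stood higher on the 1 h array, by a median of 0.92, and of 0.68 after quantile normalization. NOG1, a nucleolar GTPase of the pre-60S particle, stood at -1.26 and 1.28 at 0 and 1 h, a difference of 2.54 or 5.83-fold (2.36 after quantile normalization). Its 0 h intensity of 862 lay just above the 5th percentile of that array, 835, so this size is also uncertain. NOP2, a methyltransferase of the large subunit RNA, stood at 0.43 and 2.76 at 0 and 1 h, which is 5.05-fold (1.20 after quantile normalization). The helicase gene DBP9 stood at -2.22 and 0.64 at 0 and 1 h, and NOP4, an RNA-binding factor, at -2.09 and 0.51 at 0 and 1 h. For both of these the 0 h signal was under the 5th percentile of its array, so the size of the differences of 2.86 and 2.60 (3.17 and 2.80 after quantile normalization) is uncertain. RPF2, which brings the 5S RNA particle into the pre-60S, was at -0.19 and 1.45 at 0 and 1 h, NSA2, a pre-60S factor, at -0.40 and 0.94 at 0 and 1 h, and NOP7, the yeast pescadillo protein, at 0.56 and 1.48 at 0 and 1 h. After quantile normalization these 3 differences were 1.22, 1.14 and 0.27, the last down from 0.93. Lower at 1 h were RRP17, a 5′ to 3′ exonuclease, with a difference of -0.77 (-0.83 after quantile normalization), and NOG2, a GTPase of late nuclear pre-60S particles, with -0.60 (-1.14 after quantile normalization).

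RRP5, a large RNA-binding protein needed for both subunits, stood at -2.11 and -0.07 at 0 and 1 h, with the 0 h signal again under the 5th percentile and a difference of 2.04 (2.44 after quantile normalization). The exosome, which trims the 3′ ends of ribosomal and other RNAs, differed less, with 4 of 7 genes higher and a median of 0.43, or 0.06 after quantile normalization. Its subunit gene RRP43 had the lowest difference of all members, with 0.16 and -1.16 at 0 and 1 h (-1.32, and -1.12 after quantile normalization), and RRP6, the nuclear exonuclease of the complex, was at 0.71 and 0.39 at 0 and 1 h (-0.32, and -0.66 after quantile normalization). Among the 4 genes of other roles, DBP2, a DEAD-box helicase that acts in messenger RNA assembly as well as ribosomal RNA processing, stood at 1.63 and 3.18 at 0 and 1 h, a difference of 1.55 that was -0.03 after quantile normalization. DBP5, the helicase of messenger RNA export, was at 0.05 and 0.95 at 0 and 1 h (0.89, and 0.58 after quantile normalization), and DBP1, a helicase of translation initiation, at 0.50 and 0.50 at 0 and 1 h (-0.31 as a difference after quantile normalization). Without the exosome and other-role genes, 43 of 55 were higher, with a median of 0.92 (0.66 after quantile normalization).

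**Figure D3:**
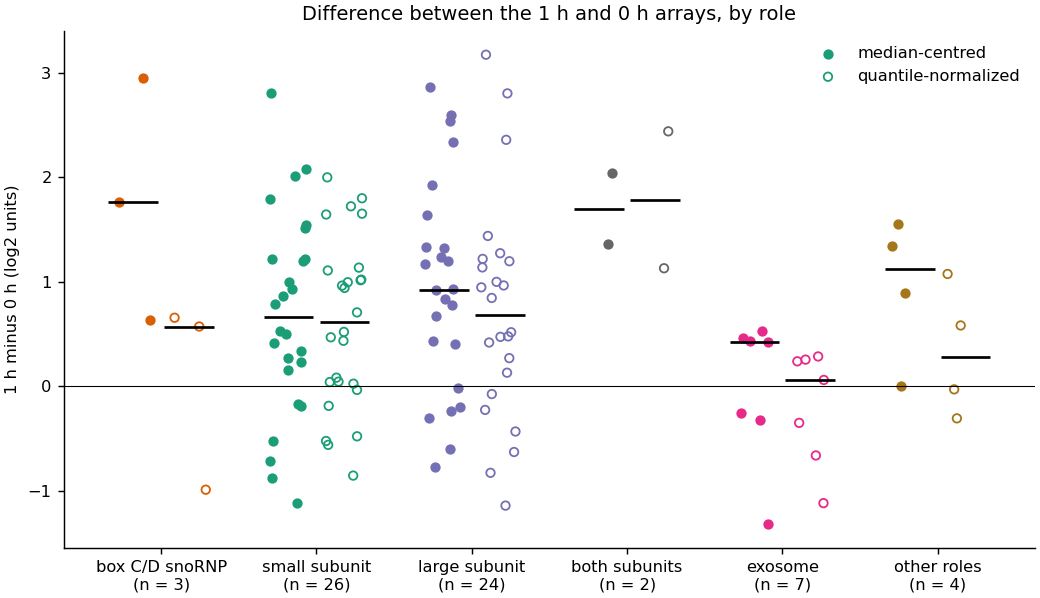
Difference between the 1 h and the 0 h array in log2 units for each of the 66 genes, by role, with median-centred values as filled points and quantile-normalized values as open points. Horizontal bars are the medians of each role, for example 0.92 and 0.68 for the large subunit. With 1 array at each time there is no error bar. The snoRNP and other-role groups moved most between the scalings.

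Other parts of the ribosome-making machinery were set beside the 66 genes for the same pair of arrays. Among 83 further biogenesis genes outside the naming pattern, 63 stood higher on the later array, by a median of 0.68 (0.57 after quantile normalization). Of 15 RNA polymerase I genes 10 were higher, with a median of 0.36, of 12 RNA polymerase III genes 8, with a median of 0.69, and of 10 other exosome genes 6, with a median of 0.29. After quantile normalization these medians were 0.30, 0.28 and 0.28. The RNA polymerase I list holds RPA subunit genes and also initiation factor genes (the RRN genes and UAF30). The RNA polymerase III list holds RPC10, RPC19 and RPC40, whose products are also part of RNA polymerase I. The 132 ribosomal protein genes differed far more, with 130 higher and a median of 4.57 (2.40 after quantile normalization). Their list also holds RPP1, which encodes a subunit of ribonuclease P and not a ribosomal protein. RPP1 was 1 of the 2 lower genes, with -0.19.

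The genes of 12 regulators of this programme were mostly lower at 1 h, with 3 higher and 9 lower and a median of -0.78. After quantile normalization the median was -0.65. The kinase genes TOR1 and TOR2 had differences of -2.84 and -2.63 (-2.25 and -1.88 after quantile normalization), but both signals were under the 5th percentile of the 1 h array, so their size carries little meaning. SCH9, a kinase below TOR complex 1, had 0.17, which turned to -0.60 after quantile normalization. Among activators of ribosomal protein or biogenesis genes, the differences were -1.20 for FHL1, -1.07 for IFH1, -1.03 for RAP1 and -0.33 for SFP1 (-0.71, -0.74, -1.16 and -0.34 after quantile normalization). The repressors of biogenesis genes gave -0.97 for STB3 and -0.60 for DOT6 (-0.60 and -0.84 after quantile normalization). The signal of TOD6, a repressor related to DOT6, was under the 5th percentile on both arrays, so its difference of -0.49, which was 0.31 after quantile normalization, has no settled sign. HMO1, a high-mobility-group protein of ribosomal DNA and ribosomal protein promoters, was higher by 1.09, and CRF1, a corepressor of ribosomal protein genes, by 0.93 (0.57 and 1.06 after quantile normalization).

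The window of 24 to 72 h was next compared with that of 0 and 1 h. No difference of a biogenesis factor gene passed the test: with limma over all 6051 features, 0 of 66 had an adjusted p under 0.05, against 0% of all features, and 0 at an unadjusted p under 0.05, against 2.83%. Between the windows, 27 genes were higher and 39 lower, with a median of -0.11 against -0.08 over all features. That value depended on which early array was used, since it was -0.47 (53 of 66 lower) without the 0 h array and 0.34 (19 of 66 lower) without the 1 h array. After quantile normalization it was 0.03, with 32 of 66 lower.

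Single members differed in this comparison without passing. NOP58 was lowest against the early window, with 2.80 ± 0.45 (SD, n = 2) at 0 and 1 h and 1.43 ± 0.50 (SD, n = 3) at 24 to 72 h, a difference of -1.37 (SE 0.67, limma adjusted p = 1). Its arrays did not overlap, at 2.48 and 3.11 at 0 and 1 h and 2.003, 1.20 and 1.08 at 24, 48 and 72 h. In all, 2 of the 66 genes (NOP58 and DBP1) were lower without overlap, against 430 of 6051 features. Higher without overlap was 1 gene, RRP1, against 399 features. The next lowest differences were -0.88 for NOP1, -0.71 for UTP6, -0.66 for DBP1, -0.64 for NOP16 and -0.61 for DBP2. The highest were 0.75 for NOP14, 0.61 for NOP4, 0.60 for DBP9, 0.55 for UTP30, 0.55 for RRP43 and 0.52 for RRP1. Those of NOP1, DBP2, NOP4, DBP9 and RRP43 changed sign when the 0 h or the 1 h array was left out. Closer to 0 came UTP6 (-0.15) and UTP30 (0.30) without the 0 h array, and NOP14 (0.31) and NOP16 (-0.25) without the 1 h array. The 0 h signals of NOP4, DBP9 and UTP30 were under the 5th percentile of that array.

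From 24 to 72 h to 96 to 144 h, most biogenesis factor genes were lower. Of the 66 genes 48 were lower and 18 higher, with a median difference of -0.29, while 49.8% of all features were lower and their median was 0.00. Without the 24 h array the median of the 66 was -0.17, with 45 lower. Lower were 3 of 3 snoRNP genes (median -0.89), 19 of 26 small subunit genes (median -0.26) and 20 of 24 large subunit genes (median -0.36), whereas 5 of 7 exosome genes were higher (median 0.27). Of the snoRNP genes, NOP58 was lower by little (-0.11) and turned to 0.11 after quantile normalization. The step from 24 to 48 h alone had 47 of 66 lower, with a median of -0.32 (all features -0.01). No gene passed limma's test, with 0 of 66 at an adjusted p under 0.05 against 0% of all features, and 2 (NOP56 and UTP5) at an unadjusted p under 0.05, against 7.04%.

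The 2 windows did not overlap for 8 lower genes (DBP2, NOP56, NOP7, RRP1, UTP14, UTP15, UTP23 and UTP5), against 9.95% of all features, and for 3 higher genes (NOP16, RRP45 and RRP8), against 7.24%. UTP15, of the UtpA subcomplex, was not among the members picked for description and is listed to complete the count. The 8 and 3 genes are shares of the 66 near those of all features. NOP56 stood at 1.21, 1.10 and 1.07 at 24, 48 and 72 h and at -0.22, 0.10 and -0.03 at 96, 120 and 144 h, so the 3 earlier arrays lay close together and all above the later ones. Its means were 1.13 ± 0.07 and -0.05 ± 0.16 (SD, n = 3 each), a difference of -1.18 (SE 0.46, limma adjusted p = 0.687). UTP5, another UtpA protein, stood at 0.88, 0.02 and 0.30 at 24, 48 and 72 h and at -0.85, -0.20 and -0.48 at 96, 120 and 144 h, a difference of -0.91 (SE 0.40, limma adjusted p = 0.687), again with no overlap.

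Further low differences were those of RRP3 (-1.10), the helicase gene DBP7 (-1.03, with 2 of its 3 later signals under the 5th percentile), UTP14, an activator of a processome helicase (-0.97), and NOP1 (-0.89, or -0.41 after quantile normalization). The 120 h signal of RRP3 was also under the 5th percentile. NOP7 stood at 1.70, 0.97 and 0.85 at 24, 48 and 72 h and at 0.15, 0.58 and 0.38 at 96, 120 and 144 h, a difference of -0.80, with the lowest earlier array above the highest later one. Among genes that were higher, the exosome gene RRP45 stood at -0.97, -2.05 and -0.64 at 24, 48 and 72 h and at -0.43, 0.30 and -0.31 at 96, 120 and 144 h, a difference of 1.07 (SE 0.55, limma adjusted p = 0.689), with the 48 h signal under the 5th percentile. NOP16, a pre-60S factor, stood at -0.48, 0.10 and -0.13 at 24, 48 and 72 h and at 0.54, 0.56 and 0.93 at 96, 120 and 144 h, a difference of 0.85 with no overlap. RRP8, a methyltransferase of the large subunit RNA, was higher by 0.69, the exosome gene RRP42 by 0.66 and UTP30 by 0.59. UTP10, of the UtpA subcomplex, gave 0.65, which rested on its 144 h level of 2.68 and was -0.39 without that array. Several of these differences leaned on 1 array: without 24 h they were -0.55 for RRP3, -0.53 for UTP14, -0.47 for NOP1, 0.32 for RRP42 and 0.33 for UTP30, without 96 h -0.58 for DBP7, and without 48 h 0.66 for RRP45.

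The late window of 168 to 264 h differed from that of 24 to 72 h in the same direction. Of the 66 genes 49 were lower and 17 higher, with a median of -0.30, while 47.1% of all features were lower and their median was 0.04. Without the 24 h array the median of the 66 was -0.14, with 43 lower. Lower were 3 of 3 snoRNP genes (median -0.85), 18 of 26 small subunit genes (median -0.29) and 20 of 24 large subunit genes (median -0.41), and 4 of 7 exosome genes were higher (median 0.10). After quantile normalization 43 of 66 were lower, with a median of -0.21. Both comparisons share the 24 to 72 h arrays, so their like direction is no independent support. No gene passed limma's test, with 0 of 66 at an adjusted p under 0.05 against 0.0826% of all features, and 2 (DBP2 and UTP5) at an unadjusted p under 0.05, against 14.9%.

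The windows did not overlap for 6 lower genes (DBP2, NOP56, NOP7, NUG1, UTP23 and UTP5), against 7.35% of all features, and for 0 higher genes, against 5.19%. DBP2 had the smallest p of the 66, with 1.91, 1.83 and 1.64 at 24, 48 and 72 h and 1.17, 0.83, 1.04 and 0.17 at 168, 192, 240 and 264 h, so each late array lay below each earlier one. Its means were 1.79 ± 0.14 (SD, n = 3) and 0.80 ± 0.45 (SD, n = 4), a difference of -0.99 (SE 0.42, limma adjusted p = 0.288), or -0.53 after quantile normalization. UTP5 stood at -0.56, -0.67, -0.23 and -0.21 at 168, 192, 240 and 264 h in the late window, also below all its 24 to 72 h levels, a difference of -0.82 (SE 0.38, limma adjusted p = 0.318). UTP23 stood at 0.72, 0.35 and -0.01 at 24, 48 and 72 h and at -0.77, -0.41, -0.17 and -0.59 at 168, 192, 240 and 264 h, a difference of -0.84, and every late array was below the earlier ones.

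NOP1 had the lowest difference, with 3.27, 2.10 and 1.88 at 24, 48 and 72 h and 2.98, 1.01, 0.34 and 0.84 at 168, 192, 240 and 264 h. The late arrays overlapped the earlier ones through the 168 h array, and the difference was -1.12 (SE 0.70, limma adjusted p = 0.477), or -0.70 after quantile normalization. NOP2 stood at 1.96, 1.11 and 0.80 at 24, 48 and 72 h and at -0.39, 0.13, -0.38 and 1.39 at 168, 192, 240 and 264 h, a difference of -1.10, with the 264 h array inside the earlier range. DBP7 was lower by value, with -0.96, 3 of its 4 late signals being under the 5th percentile, and NOP56 with -0.85. NOP7 was lower than at 24 to 72 h on all 4 late arrays, with 0.57, 0.73, -0.03 and 0.07 at 168, 192, 240 and 264 h, a difference of -0.84 (limma adjusted p = 0.343). NUG1, a GTPase of the pre-60S particle that was likewise listed to complete the count, had 0.24, 0.48 and 0.18 at 24, 48 and 72 h and -0.75, -0.27, -0.10 and -0.38 at 168, 192, 240 and 264 h.

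Higher in the late window by value were NOP19, a processome protein (1.00), NOP16 (0.86), RRP6 (0.57), UTP30 (0.57), RRP45 (0.52) and UTP13, of the UtpB subcomplex (0.51). The signals of RRP45 at 48 and 240 h and of UTP13 at 168 h were under the 5th percentile. NOP16 stood at 1.49, 0.82, 0.38 and 0.08 at 168, 192, 240 and 264 h, with the 264 h array inside its earlier range. NOP19 stood at -2.15, -1.06 and -1.13 at 24, 48 and 72 h and at -1.20, -1.99, 0.57 and 0.84 at 168, 192, 240 and 264 h, and its 24 h and 192 h signals were under the 5th percentile. RRP6 stood at 0.91, -0.02 and 0.39 at 24, 48 and 72 h and at 0.96, 0.62, 0.94 and 1.48 at 168, 192, 240 and 264 h, with overlap. The fixed members NOG1, RPF2, NSA2, RRP5, NOP58, NOP14, UTP4, UTP22 and DBP5 had differences of -0.44, -0.57, -0.14, -0.03, -0.01, 0.13, 0.12, 0.06 and -0.12, and DBP1 had 0.51. After quantile normalization those of NSA2, NOP58 and UTP22 turned sign, to 0.22, 0.40 and -0.13. Leaving out 1 array brought NOP1 to -0.69, UTP13 to 0.25 and UTP30 to 0.31 (without 24 h), RRP45 to 0.11 and RRP6 to 0.35 (without 48 h), and NOP19 to 0.57 (without 264 h).

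**Figure D4:**
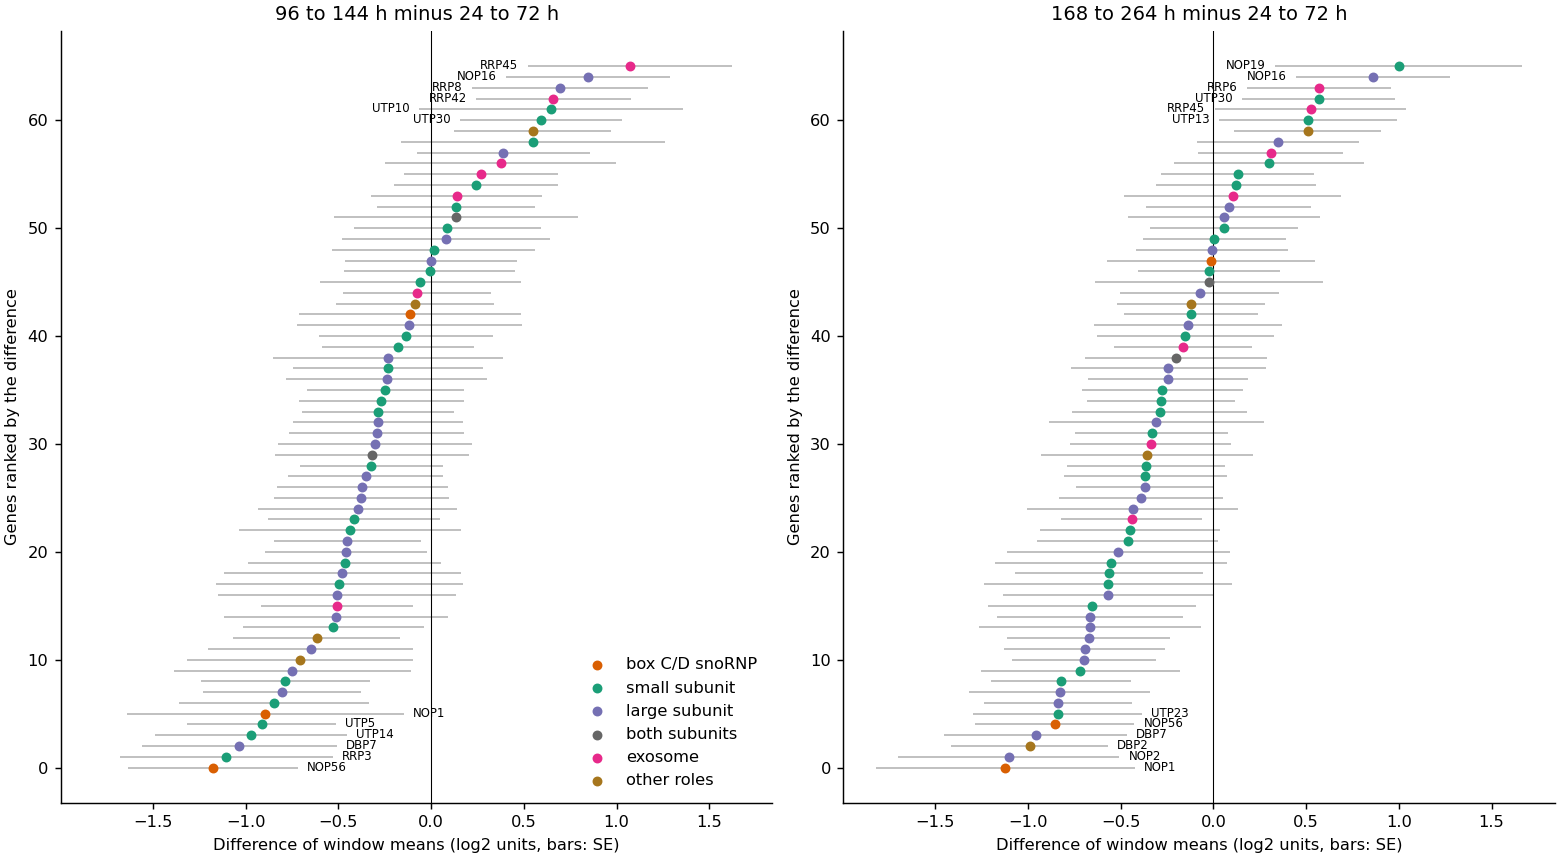
Difference of window means in log2 units for each of the 66 genes, ranked, for 96 to 144 h minus 24 to 72 h (left) and 168 to 264 h minus 24 to 72 h (right), coloured by role, with bars of 1 standard error from limma. The 6 genes at each end are named. Left of 0 lay 48 and 49 of the 66 genes, and no gene passed an adjusted p of 0.05.

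Related genes again gave different values for the late window. Of the 83 other biogenesis genes 53 were lower, with a median of -0.16. Of 12 genes listed under RNA polymerase III 7 were lower, with a median of -0.49. Of 15 genes listed under RNA polymerase I, initiation factors among them, 10 were higher, with a median of 0.20. After quantile normalization these medians were -0.15, -0.56 and 0.22. Since the lists mix subunits, shared subunits and factors, they do not compare the 2 enzymes. The 132 genes of the ribosomal protein list had 128 lower, with a median of -2.23, and RPP1, which encodes no ribosomal protein, was among those higher (0.71). The 12 regulators had 7 higher and a median of 0.17, which was -0.05 after quantile normalization.

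Between 96 to 144 h and 168 to 264 h the median of the group differed little from that of all features. Of the 66 genes 28 were higher and 38 lower, with a median of -0.04 against 0.03 over all features, and 0 of 66 passed limma's test at an adjusted p under 0.05, against 0% of all features, with 0 at an unadjusted p under 0.05, against 1.57%. UTP10 had the lowest difference, -1.21, which was -0.18 without the 144 h array, followed by DBP3, a pre-60S helicase gene (-0.69), RRP8 (-0.61), RRP45 (-0.55), RPF1 (-0.53) and NOP6 (-0.50). The highest were UTP13 (0.74), the helicase gene DBP6 (0.71), UTP7 (0.70), UTP14 (0.52), RRP17 (0.45) and NOP19 (0.45). Under the 5th percentile were the signals of UTP13 at 120, 144 and 168 h, DBP6 at 144 h and NOP19 at 120 and 192 h. So were those of RRP45 at 240 h and NOP6 at 264 h. DBP3 stood at 0.62, 0.89 and 0.44 at 96, 120 and 144 h and at -0.07, 0.22, -0.48 and 0.15 at 168, 192, 240 and 264 h, with no overlap. It was the only one of the 66 genes without overlap here, against 75 lower and 120 higher of the 6051 features. Leaving out 1 array brought RPF1 to -0.06, RRP45 to -0.20 and UTP14 to 0.30 (without 240 h), NOP6 to -0.14, DBP6 to 0.39 and UTP7 to 0.45 (without 144 h), RRP8 to -0.37 (without 192 h), UTP13 to 0.47 (without 120 h) and NOP19 to -0.17 (also without 120 h).

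A test of change over the whole course, without windows, used a smooth curve of time through the 12 arrays. Of the 66 genes 0 passed at an adjusted p under 0.05 with limma's moderated F test, against 0.0331% of all features, and 7 (10.6%) had an unadjusted p under 0.05, against 16.1% of all features. The smallest adjusted p were 0.199 for DBP2, 0.219 for NOP1, 0.241 for NOP56, 0.258 for UTP5, 0.268 for UTP30 and 0.289 for NOP19. Without the 0 h array the curve passed for 10 members, among them NOP1 (limma adjusted p = 0.00234), DBP2 (0.00924), UTP8 (0.00926) and NOP56 (0.0111), but 18.4% of all features then passed as well, against 15.2% of the 66 genes. The plot of 12 genes on each array shows the courses behind these values, with NOP1, NOP56, NOP58, NOP2, UTP8, UTP23, NUG1 and DBP2 highest at 1 h. UTP30, whose product is related to a ribosomal protein, was lowest at 0 h and highest at 240 h, with -1.60 and -1.10 at 0 and 1 h, -1.33, -0.62 and -0.46 at 24, 48 and 72 h, 0.06, -0.14 and -0.55 at 96, 120 and 144 h and -0.82, -0.22, 0.46 and -0.36 at 168, 192, 240 and 264 h. Its 0 h signal was under the 5th percentile of that array, and the 240 h array was the least like the others.

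**Figure D5:**
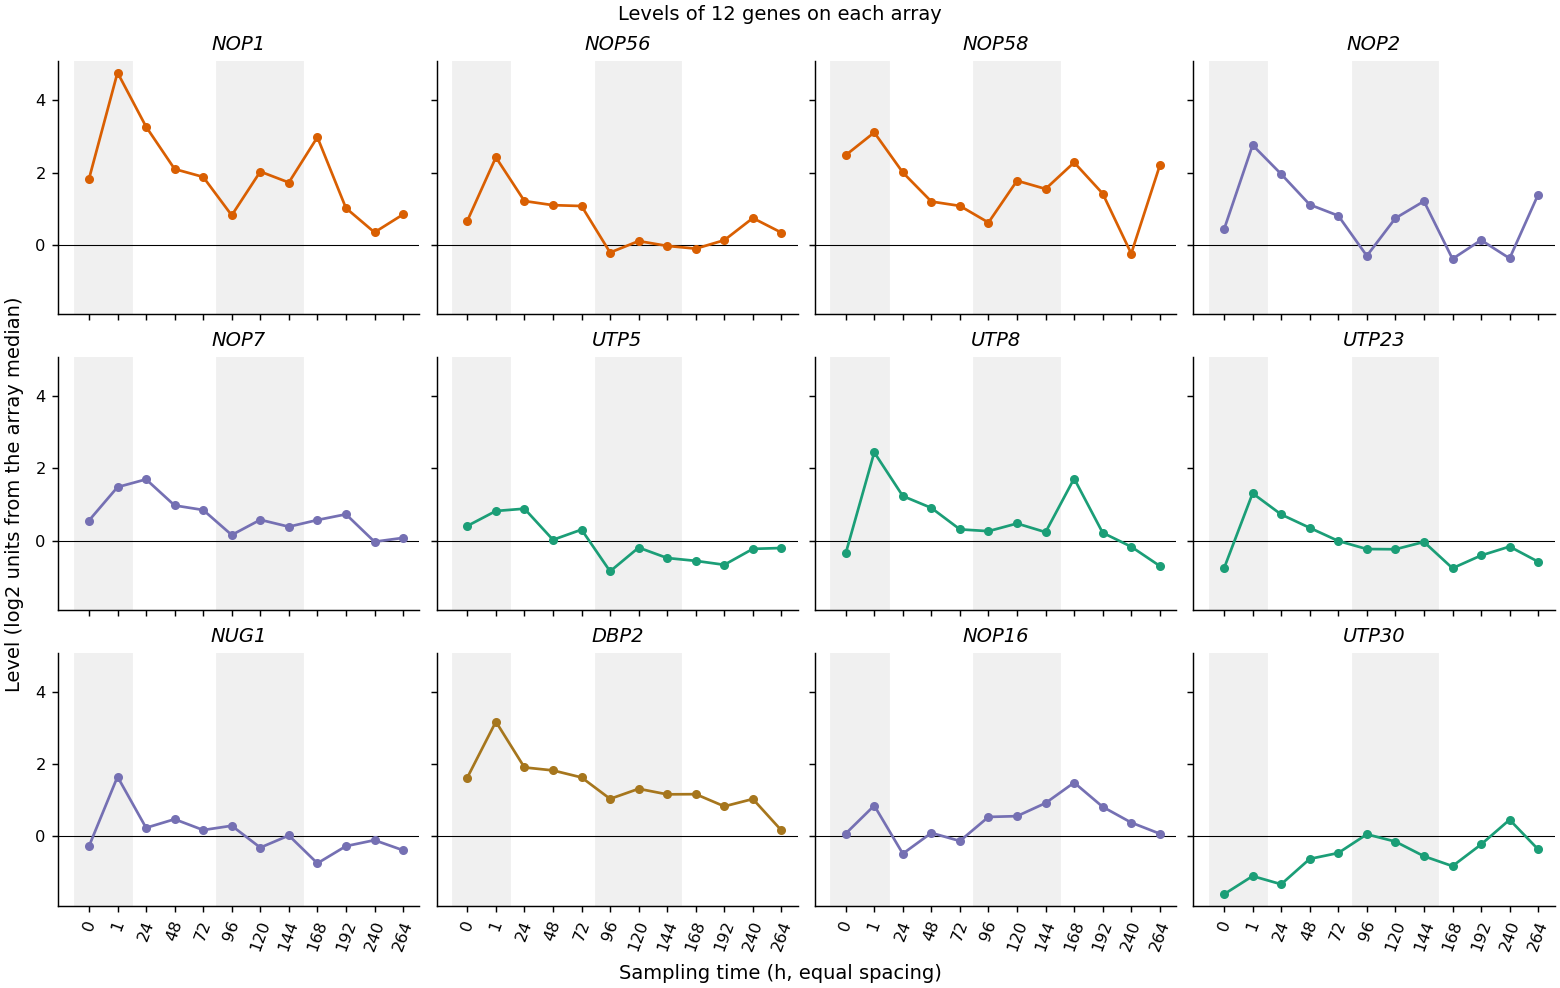
Level of 12 of the genes on each of the 12 arrays, in log2 units relative to that array's median gene, coloured by role as in the plot of window differences; shading marks the windows of 0 to 1 h and 96 to 144 h, and the time axis is evenly spaced and not to scale. NOP1 stood at 4.77 at 1 h and 0.34 at 240 h, while UTP30 stood at -1.60 at 0 h and 0.46 at 240 h. The 0 h signal of UTP30 was under the 5th percentile of its array.

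Arrays that were most alike over the 66 genes were not neighbours in time. Spearman's rho across the 66 genes was 0.853 between 120 and 168 h, 0.818 between 0 and 72 h, 0.8 between 72 and 120 h and 0.752 between 1 and 48 h. Across all features the same pairs gave 0.842, 0.701, 0.814 and 0.751, so this likeness was not particular to the 66 genes. These are correlations across genes, which share each array's scale and are not independent replicates.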

How the data were processed

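Total RNA of lager yeast was hybridised to 12 arrays, 1 for each sampling time. The deposited values are linear probe intensities for 6084 probes, given as whole numbers. Which scanner was used, and how background and scale were handled, is not given in the sources used here, and no detection call came with the intensities that the authors deposited. The 3 intensities of 0 were treated as missing. The platform annotation gave 5523 probes 1 symbol and 561 none, and the 32 symbols with several probes were averaged, which gave 6051 features.

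Levels are log2 intensities minus the median of the array. Window means were fitted on all 12 arrays in R 4.3.3 using lmFit and eBayes of limma 3.58.1, which left 8 residual degrees of freedom besides 7.96 from the prior. Tests were two-sided and p-values were adjusted by Benjamini and Hochberg's method over every feature measured on at least 9 arrays and a threshold of 0.05. The spread inside a window holds real change between its times, so p-values speak only for these samples, and the number of arrays limits the precision. Change over the course used a natural cubic spline of hours with 3 degrees of freedom. The fits were tested on simulated data. No comparison of 1 h with 0 h was tested.

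The naming pattern that picks the members uses no measured value, but it and the other gene lists were chosen with earlier results of these data known. Genes were named by rule, as the 6 highest and 6 lowest differences of each comparison, the 6 smallest spline p-values and a fixed set of NOP, UTP, RRP, RPF, NOG, NSA and DBP genes; NOP10, also in that set, was not analysed here. Every regulator was named and other lists are given as counts and medians. Alternatives were no centring, quantile normalization, normexp background correction with an offset of 50, equal median absolute deviations, complete features, removal of the dimmest 25%, genes with 1 probe, other variance and curve models, and leaving out each array. Counts by sign without each array, without genes of other roles, and the subcomplexes in the closing section were added after seeing the data. Figures were drawn with matplotlib 3.10.9. No genome was used, so no positions or sequences are given.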

Additional observations from a re-analysis of the deposited data

How the results depend on the processing

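Of the alternatives to the reported group values, 182 counted as the same, 9 moved them and 3 made calls appear. A median counted as the same within 0.269 log2 units of the reported one, whatever its sign, and a count of calls if unchanged. Small medians changed sign within that limit. The median for 24 to 72 h against 0 and 1 h went from -0.11 to 0.03 after quantile normalization. For 168 to 264 h against 96 to 144 h it went from -0.04 to 0.04 without the 192 h array. For single named members 623 counted as the same, 6 moved and 7 changed sign. In the window comparisons the same meant an unchanged sign and no new call, whatever the size. For 168 to 264 h against 96 to 144 h, UTP10 thus counted as the same at -1.21 and, without 144 h, at -0.18. For 1 h against 0 h it also meant a shift under 0.269 log2 units. Without centring, the unequal scale of the deposited arrays entered every value: the median difference of the 66 genes became 0.96 for 24 to 72 h against 0 and 1 h, -1.42 for 96 to 144 h and -2.40 for 168 to 264 h against 24 to 72 h, -1.01 for 168 to 264 h against 96 to 144 h and 2.11 for 1 h against 0 h, with 38 genes called for 168 to 264 h against 24 to 72 h and 64 by the curve, where 35.1% and 84.1% of all features were called too. The 1 h against 0 h median was 0.50 after quantile normalization and 0.51 with equal median absolute deviations.

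Leaving out 1 array moved the median of 24 to 72 h against 0 and 1 h between -0.47 (without 0 h) and 0.34 (without 1 h), and the genes called by the curve between 0 and 10 (without 0 h). Where 0 or 1 h was left out, the lone early array was assumed to vary like the other windows. In the same comparison the difference ranged from -0.68 to 1.91 for NOP4, -0.83 to 2.03 for DBP9, -0.11 to 1.21 for RRP43, -2.36 to 0.60 for NOP1 and -1.39 to 0.16 for DBP2. UTP10 ranged from -0.39 to 1.42 for 96 to 144 h against 24 to 72 h, and NOP19 from -0.17 to 0.99 for 168 to 264 h against 96 to 144 h. The cause was not tested. The count of lower genes stayed between 44 and 50 for 96 to 144 h and between 43 and 51 for 168 to 264 h against 24 to 72 h, but without the 24 h array their medians shrank from -0.29 to -0.17 and from -0.30 to -0.14. No paired analysis was possible because the labels give no replicate numbers. Signal over background was unknown, which limits the 15 genes with values under the 5th percentile.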

Other observations

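The genes of the UtpA and UtpB subcomplexes of the small subunit processome include 3 that the naming pattern misses, NAN1 of UtpA and PWP2 and DIP2 of UtpB. They were grouped after their values were seen and given no test as groups. All 7 UtpA genes were higher at 1 h than at 0 h, by 0.53 for UTP4, 0.42 for UTP5, 2.80 for UTP8, 0.79 for UTP9, 1.20 for UTP10, 1.22 for UTP15 and 2.01 for NAN1. After quantile normalization the differences were 0.08, 0.04, 1.999, 0.47, 1.14, 1.02 and 1.89. Of the 6 UtpB genes 2 were higher, DIP2 by 1.29 and UTP18 by 0.16, while UTP6, UTP13, UTP21 and PWP2 gave -1.12, -0.52, -0.18 and -0.23. After quantile normalization DIP2 and UTP18 gave 1.47 and 0.52, and the other four -0.85, -0.19, -0.48 and -0.10. With 1 array at each time, the difference between the subcomplexes was not tested.

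For 168 to 264 h against 24 to 72 h, 6 of the 7 UtpA genes had differences below 0, from -0.28 for UTP15 to -0.87 for NAN1, and UTP4 gave 0.12. Of the 6 UtpB genes 3 were below 0, with -0.83 for DIP2, -0.37 for UTP21 and -0.12 for UTP18, and 3 above, with 0.30 for UTP6, 0.51 for UTP13 and 0.11 for PWP2. The value of DIP2 rested on its 48 h level of 3.72, beside 0.37 and -0.96 at 24 and 72 h. Its late levels were -0.79, -0.86, 1.84 and 0.68 at 168, 192, 240 and 264 h. None of these genes passed limma's test in this comparison, and 1, UTP5, had an unadjusted p under 0.05. UTP6 was under the 5th percentile of its array at 120 and 264 h, UTP13 at 120, 144 and 168 h, and UTP18 at 240 h.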
